A study of Arabidopsis thaliana with 4 samples.

Results

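The mitochondrial genome of Arabidopsis thaliana was followed through its rows in a table of RNA-seq counts from leaf protoplasts and whole leaves. Every row whose locus name starts with ATMG was taken, which gave 123 of the 24904 loci in the table, beside 130 chloroplast and 24651 nuclear loci. The protoplast group held 2 libraries from wild-type Col-0 plants aged 6 weeks, whose leaves were stripped of the lower epidermis with tape and digested for 2 h in 1% cellulase R-10, 0.3% macerozyme R-10 and 0.6 M mannitol. The leaf group held 2 libraries from whole leaves of wild-type Col-0 plants of the same age, so the groups differ by every step of the isolation. Plants of both groups had days of 8 h light, at 60 µmol photons per m2 and s, and nights of 16 h. All 4 libraries were made from poly(A) RNA selected from 5 µg of total RNA, with a directional kit and 10 PCR cycles, and were read as pairs of 150 bases.

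Plant mitochondria keep a small set of genes for respiratory chain subunits, the ATP synthase, cytochrome c maturation and ribosomal proteins, together with ribosomal and transfer RNAs and many open reading frames, while most mitochondrial proteins come from nuclear genes. A poly(A) tail on a plant mitochondrial transcript is a mark for its degradation and not, as on a nuclear mRNA, a stable feature, so oligo(dT) selection does not sample mitochondrial RNA by its abundance. The values below are therefore counts of what entered a poly(A) library, not of mitochondrial RNA in the cell. In bulk samples, fewer cells of a type and less RNA per cell cannot be told apart.

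Nuclear chromosome 2 of Col-0 carries a long copy of the mitochondrial genome. In the TAIR10.1 reference, 72.4% of the 367808 bases of the mitochondrial genome matched chromosome 2 at 99% identity or more over at least 300 bases. The 17 matches of 1000 bases or more lay between chr2:3239038-3509765 and were 99.56% to 99.972% identical. Of 17 mitochondrial coding sequences compared with a full-length match there, 13 were the same in every base. The short sequences below are shown because each is identical to its nuclear copy, so that its reads could come from either genome, and because they include a subunit of the ATP synthase (atp9), a subunit of complex I (nad3) and a ribosomal protein (rps12) that are followed below. Capitals mark the first codon and, for atp9, the last, and the sequences are the RefSeq genomic ones, before RNA editing, whole for atp9 and the first 240 bases for the others. They lie at chrMT:270961-271185 (minus strand), chrMT:288044-288283 and chrMT:288446-288685 (plus strand), and their copies at chr2:3251856-3252080 (minus strand), chr2:3270008-3270247 and chr2:3270410-3270649 (plus strand).
atp9: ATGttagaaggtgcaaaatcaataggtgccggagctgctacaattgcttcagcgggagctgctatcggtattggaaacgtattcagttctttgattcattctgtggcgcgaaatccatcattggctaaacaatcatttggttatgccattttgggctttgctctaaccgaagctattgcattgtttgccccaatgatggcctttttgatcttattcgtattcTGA
nad3: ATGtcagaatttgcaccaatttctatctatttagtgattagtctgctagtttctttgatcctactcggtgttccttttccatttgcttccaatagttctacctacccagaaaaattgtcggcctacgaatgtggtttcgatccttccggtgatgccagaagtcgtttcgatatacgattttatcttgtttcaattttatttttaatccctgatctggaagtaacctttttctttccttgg
rps12: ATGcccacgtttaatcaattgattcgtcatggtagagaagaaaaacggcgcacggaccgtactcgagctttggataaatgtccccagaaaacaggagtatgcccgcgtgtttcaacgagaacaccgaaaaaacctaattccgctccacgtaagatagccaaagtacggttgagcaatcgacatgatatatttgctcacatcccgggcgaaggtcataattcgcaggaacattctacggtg

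The reference gives ATMG identifiers no names of their own. Its notes on nuclear copies, mostly on chromosome 2, tie 44 of the 123 to a copy, 23 of these with a description other than an unknown protein, and 79 had no such note. In what follows, 15 loci carry a symbol and 5 a described function from these notes, and the others keep their identifier. The reference also lists genes such as cox1, nad4, rrn18 and rrn26 in the mitochondrial genome, which the notes tie to no identifier. Loci shown by identifier can thus be known genes, ribosomal RNAs included.

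Mitochondrial loci took a very small part of every library, and a smaller one in protoplasts. They held 11767 and 11038 counts in the protoplast libraries, against 16969 and 16986 counts in the leaf libraries. The share of all counts was 0.0243% (95% Clopper-Pearson interval 0.0238% to 0.0247%) and 0.0276% (0.0271% to 0.0281%) in protoplasts. It was 0.0403% (0.0397% to 0.0409%) and 0.0389% (0.0383% to 0.0395%) in leaf, so the groups did not overlap. The intervals cover counting error only. The mean share was 0.0259% ± 0.0024 in protoplasts and 0.0396% ± 0.0010 in leaf (SD, n = 2 each), a ratio of 0.655. That is -0.61 on the log2 scale. Scaled by library size alone, as a share is, all tested genes had a median log2 fold change of -0.85, so a smaller share was not particular to mitochondrial loci. An exact two-sided permutation test gave p = 0.333, the smallest that 2 libraries against 2 can give. The share of chloroplast loci was larger in protoplasts, at 5.22% ± 1.03 against 3.72% ± 0.30 in leaf (SD, n = 2 each), a ratio of 1.40. Set against chloroplast loci the gap was wider, as it holds the change of both shares. There were 185.3 and 215.5 chloroplast counts per mitochondrial count in protoplasts, against 97.8 and 90.3 in leaf (exact permutation p = 0.333).

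**Figure D1:**
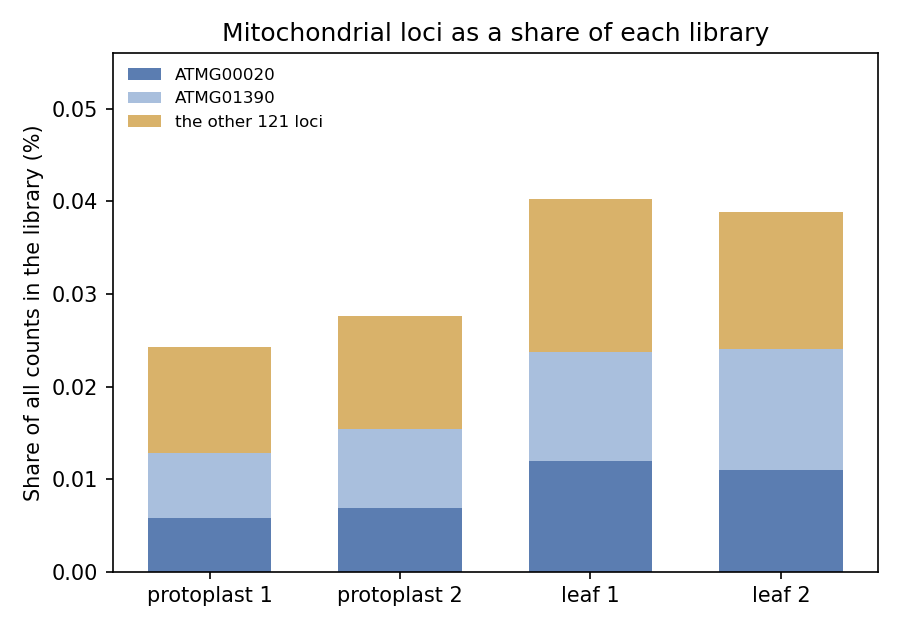
Share of all counts (y axis, percent) at mitochondrial loci in each library, stacked as ATMG00020, ATMG01390 and the other 121 loci. Both protoplast bars (0.0243% and 0.0276%) are lower than both leaf bars (0.0403% and 0.0389%), and the 2 named loci make up more than the remaining 121 in each.

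ATMG00020 and ATMG01390, a pair without a note, held most of these counts, together 52.9% and 55.8% of the mitochondrial counts in protoplasts and 59.0% and 61.9% in leaf. The shares above thus rest largely on this pair. Without it and ATMG01380, the ratio of mean shares was 0.755 instead of 0.655. ATMG00020 had 2843 and 2751 counts in protoplasts, against 5053 and 4788 in leaf. ATMG01390 had 3376 and 3407 counts in protoplasts, against 4951 and 5724 in leaf. At the other end, 34 of the 123 loci had fewer than 10 counts over all 4 libraries and 46 had 0 in at least 1 library. After the filter on low counts 62 loci were left to test, of which 20 had fewer than 100 counts in all. The 61 others had 2 to 30 counts each and are described by their counts alone.

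For single loci, counts were set against library sizes scaled by TMM factors and tested with edgeR's quasi-likelihood test, with p-values adjusted over all 20200 tested genes and a threshold of 0.05. Of the 62 loci tested, 23 rose and 11 fell in protoplasts, against 39.8% and 40.7% of all tested genes, and 28 did not pass the test. Their median log2 fold change was 0.28, beside -0.04 for all tested genes. Protoplast and leaf libraries did not overlap for 46 of the 62, or 74.2%, against 90.3% of all tested genes. Tested without a filter, 24 of the 123 rose and 15 fell, against 36.4% and 35.0% of all 24904 loci, with a median of -0.09.

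How many loci were called up or down depended on how the libraries were scaled. The TMM factors were 0.764 and 0.749 in protoplasts and 1.32 in each leaf library, which moves log2 fold changes up by about 0.81 relative to scaling by library size alone. By library size alone 8 of the 62 rose and 32 fell, against 21.4% and 69.6% of all tested genes, and the median of the 62 was -0.52 beside -0.85 for all tested genes. With the mitochondrial loci as their own scale, 16 rose and 17 fell, against 30.1% and 51.5% of all tested genes. Across 6 scalings, 8 of the 62 loci were higher each time and 10 lower each time. The same count was not made over all tested genes, so these numbers have no background to be read against. The loci that were higher under every scaling included atp1, cob and ccmC, and of the 23 higher with TMM factors 7 had a negative log2 fold change by library size alone.

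**Figure D2:**
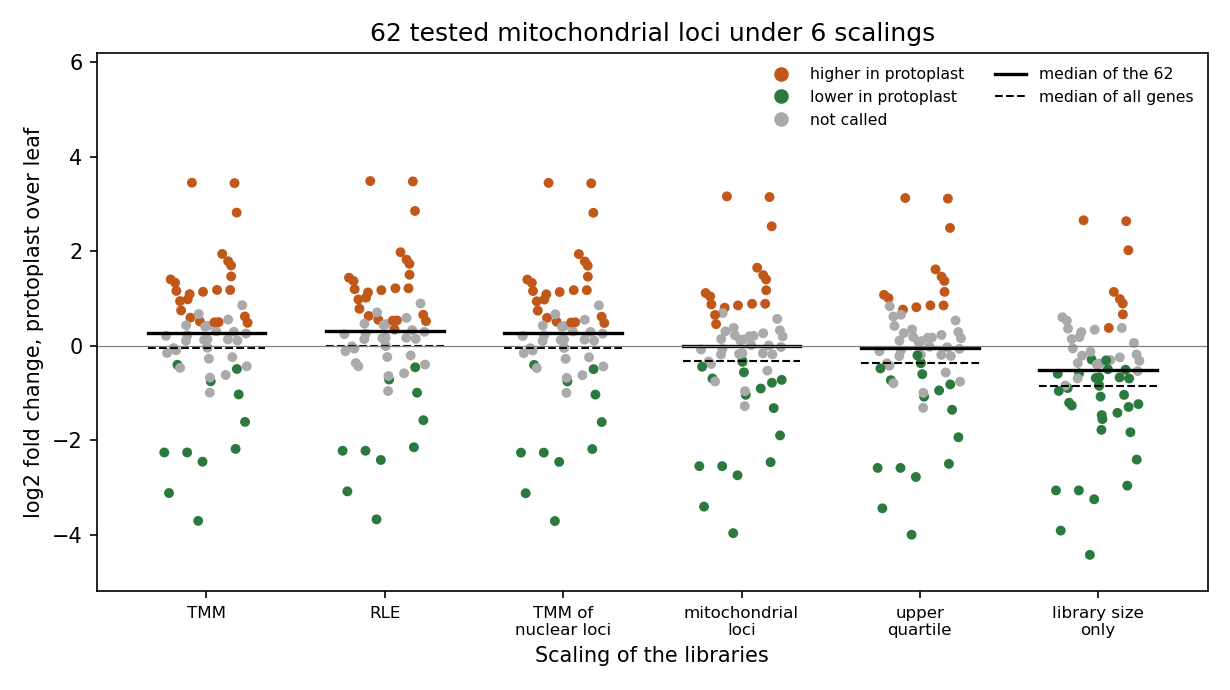
Log2 fold change of protoplast over leaf (y axis) for the 62 tested mitochondrial loci under 6 scalings of the libraries, with orange points higher, green points lower and grey points not called at an adjusted p of 0.05. Solid bars are the median of the 62, at 0.28 with TMM factors and -0.52 by library size alone, and dashed bars the median of all tested genes, at -0.04 and -0.85.

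Among loci named by the notes as known genes, 17 in all, 14 were tested. Counted with them are ATMG00560 and ATMG00960, which have a described function but no symbol. Of the 14 tested, 9 rose and 1 fell, against 39.8% and 40.7% of all tested genes, and 4 did not pass, with a median log2 fold change of 0.92. Scaled by library size alone, 3 rose and 6 fell, against 21.4% and 69.6% of all tested genes. The largest count was that of atp1, the alpha subunit of the catalytic head of the ATP synthase. It had 1101 and 848 counts in protoplasts, against 436 and 420 in leaf. That is 29.0 ± 0.983 CPM (the count scaled to a common library size with TMM factors) in protoplasts and 7.55 ± 0.385 CPM in leaf (SD, n = 2 each). Both protoplast libraries were well above both leaf libraries, also in raw counts, at a log2 fold change of 1.94 ± 0.08 (SE, edgeR adjusted p = 1.23e-10) that was 1.14 by library size alone (adjusted p = 7.44e-10).

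The other ATP synthase loci named by the notes moved less. The subunits encoded by atp6-1, atp8 and atp9 belong to the part of the enzyme that sits in the membrane, where atp9 encodes the ring that turns as protons pass. For atp6-1 the counts were 56 and 47 in protoplasts, against 40 and 29 in leaf, a log2 fold change of 1.33 ± 0.26 (SE, edgeR adjusted p = 0.000405) that did not pass by library size alone (0.53, adjusted p = 0.0646). For atp8 they were 85 and 63 in protoplasts, against 81 and 68 in leaf, and its log2 fold change of 0.75 (edgeR adjusted p = 0.00403) turned to -0.06 by library size alone (adjusted p = 0.792). For atp9 they were 202 and 195 in protoplasts, against 375 and 314 in leaf, while its CPM of 5.99 ± 0.751 in protoplasts and 6.09 ± 0.910 in leaf overlapped (log2 fold change -0.03, edgeR adjusted p = 0.843). By library size alone, atp9 was lower, at -0.84 (adjusted p = 1.32e-05). The ratio of atp1 to atp9 counts within a library, a pair picked after the values were seen, needs no scaling. It was 5.45 and 4.35 in protoplasts, against 1.16 and 1.34 in leaf, without overlap between the groups (exact permutation p = 0.333).

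The 3 tested loci that the notes name as genes of the respiratory complexes had few counts and rose with TMM factors, as did 39.8% of all tested genes. Of complex I, the entry point of electrons from NADH, nad2B had 45 and 32 counts in protoplasts, against 27 and 22 in leaf, and rose by a log2 fold change of 1.40 ± 0.28 (SE, edgeR adjusted p = 0.000592). The complex I loci nad3 (4 and 11 counts in protoplasts, against 3 and 1 in leaf) and nad1A (12 and 3 counts in protoplasts, against 8 and 4 in leaf) were under the filter on low counts and were not tested. The locus of cob, the cytochrome b of complex III, had 21 and 36 counts in protoplasts, against 14 and 14 in leaf, and rose by 1.79 ± 0.41 on the log2 scale (edgeR adjusted p = 0.00154), or by 1.19 without the second protoplast library (adjusted p = 0.0456). That of cox3, a core subunit of complex IV, had 43 and 29 counts in protoplasts, against 29 and 26 in leaf, and rose by 1.14 ± 0.28 on the log2 scale (edgeR adjusted p = 0.00239). By library size alone, cob stayed called (0.99, adjusted p = 0.0290), while cox3 and nad2B kept a positive sign without passing (0.34 and 0.60, adjusted p = 0.272 and 0.0628).

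Of 3 loci that the notes tie to cytochrome c maturation, which attaches haem to c-type cytochromes, 2 were tested. Of these, 1 rose and 1 fell, against 39.8% and 40.7% of all tested genes. ATMG00960 was under the filter on low counts, with 5 and 8 counts in protoplasts, against 12 and 5 in leaf. The locus of ccmC, which takes part in handing over the haem, had 25 and 30 counts in protoplasts, against 8 and 5 in leaf. Its CPM was 0.839 ± 0.232 in protoplasts and 0.115 ± 0.0402 in leaf (SD, n = 2 each), with both protoplast libraries above both leaf libraries. The log2 fold change was 2.82 ± 0.43 (SE, edgeR adjusted p = 5.42e-05), and 2.02 by library size alone (adjusted p = 0.000361). That of ccmFC, part of the haem lyase, had 59 and 34 counts in protoplasts, against 119 and 146 in leaf, and fell by 0.75 ± 0.21 on the log2 scale (edgeR adjusted p = 0.00555). It was lower under each of the 6 scalings. The ratio of ccmC to ccmFC counts, also picked after the values were seen, was 0.424 and 0.882 in protoplasts, against 0.0672 and 0.0343 in leaf (exact permutation p = 0.333).

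Of 5 tested loci that the notes tie to ribosomal proteins, 2 rose with TMM factors and 3 did not pass the test. The share of all tested genes that rose was 39.8%. With library size as the scale 0 of the 5 rose and 4 fell, against 21.4% and 69.6% of all tested genes. For rps4 the counts were 81 and 47 in protoplasts, against 50 and 51 in leaf, a log2 fold change of 1.09 ± 0.23 (SE, edgeR adjusted p = 0.000889) that did not pass by library size alone (0.29, adjusted p = 0.253). For rps12 they were 427 and 475 in protoplasts, against 593 and 500 in leaf. Its log2 fold change of 0.50 (edgeR adjusted p = 0.00560) was -0.31 by library size alone (adjusted p = 0.0284), and it no longer passed without the second protoplast library (0.25, adjusted p = 0.0922). The log2 fold changes of rpl5, rps7 and ATMG00560, whose copy is described with domains of ribosomal protein L2, were 0.21, -0.24 and -0.62 (edgeR adjusted p = 0.435, 0.511 and 0.0916). They were at -0.59, -1.04 and -1.42 by library size alone (adjusted p = 0.0306, 0.00791 and 0.000351). ATMG00560 passed without the first protoplast library (-1.32, adjusted p = 0.0125) and without the first leaf library (-0.78, adjusted p = 0.0413).

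**Figure D3:**
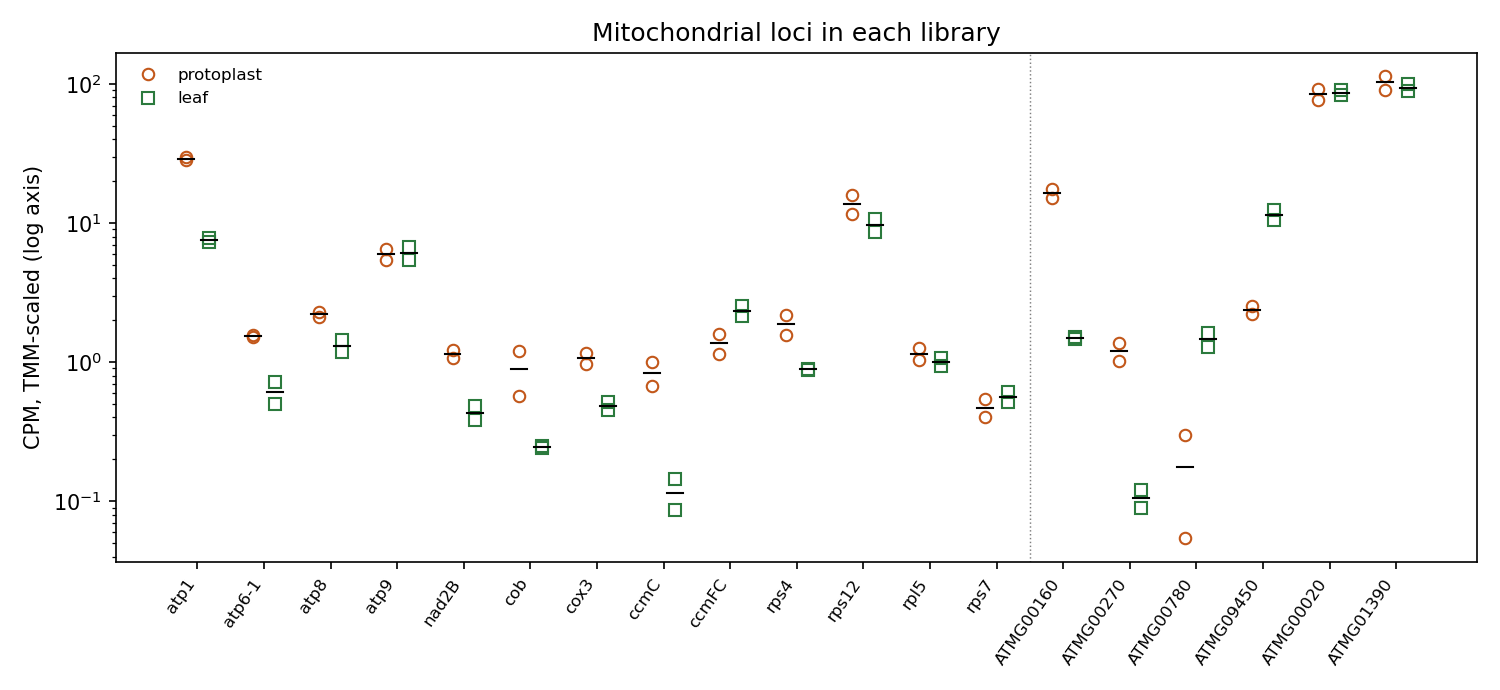
CPM of each library (y axis, log scale, TMM-scaled) for 19 mitochondrial loci, with protoplast libraries as circles left of the leaf libraries as squares, and the group means as bars. Loci right of the dotted line are shown by identifier. The libraries of the groups are widely apart for atp1, ccmC, ATMG00160, ATMG00270 and ATMG09450 and overlap for atp9, rpl5, rps7, ATMG00020 and ATMG01390.

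The coding sequences of these loci were also compared in composition. The longest run of A in the RefSeq coding sequence was 5 bases for atp1, 4 for cob, 5 for cox3, 4 for ccmC, 5 for atp8 and 6 for rps4 and rps12, which rose. It was 4 for atp9, 5 for rps7 and 6 for rpl5, which were not called, and 6 for ccmFC, which fell. The same 11 coding sequences had a GC content of 37.6% (rps4) to 44.8% (atp1). These are descriptions of the coding sequence, and the untranslated ends were not examined.

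The remaining 106 loci, most of them without a note, were not named by the notes as known genes. As loci without a name can be known genes, this is not a split of known from unknown genes. Among the 106 were 3 reading frames that resemble a known mitochondrial gene, and 48 of the 106 were tested. Of these, 14 rose and 10 fell, against 39.8% and 40.7% of all tested genes, and 24 did not pass, with a median log2 fold change of 0.18. Scaled by library size alone, 5 rose and 26 fell, against 21.4% and 69.6% of all tested genes. The reading frame like cytochrome c oxidase subunit II, ATMG01280, had a log2 fold change of 0.94 (edgeR adjusted p = 0.00986), which did not pass without the second protoplast library (0.59, adjusted p = 0.147) or by library size alone (0.14, adjusted p = 0.645). That like cytochrome b, ATMG00590, had -0.40 (edgeR adjusted p = 0.0448), a call that ended without the first leaf library (-0.20, adjusted p = 0.390) and without either protoplast library (-0.35 and -0.47, adjusted p = 0.156 and 0.0583). It did not pass with RLE factors, limma-voom, DESeq2 or a replicate block either (adjusted p = 0.0639, 0.0829, 0.192 and 0.0506). That like ATP synthase subunit 9, ATMG01090, had 0.13 (edgeR adjusted p = 0.511). Among those with another description, ATMG00610, noted as a putative membrane lipoprotein, had 25 and 17 counts in protoplasts, against 70 and 26 in leaf (log2 fold change -0.44, edgeR adjusted p = 0.373). ATMG01110, noted as like a mitovirus RNA polymerase, had 2 and 0 counts in protoplasts, against 1 and 3 in leaf, and ATMG00280, noted with a domain of the Rubisco large chain, had 1 and 2 counts in protoplasts, against 14 and 7 in leaf, and neither was tested.

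The loci furthest from equality were among those without a note. ATMG00160 had 562 and 526 counts in protoplasts, against 85 and 85 in leaf. Its CPM was 16.4 ± 1.70 in protoplasts and 1.499 ± 0.0369 in leaf (SD, n = 2 each), a log2 fold change of 3.44 ± 0.12 (SE, edgeR adjusted p = 4.43e-11) that was 2.64 by library size alone. The ratio of its counts to those of ATMG01390 in the same library was also picked after the values were seen. It was 0.167 and 0.154 in protoplasts, against 0.0172 and 0.0149 in leaf (exact permutation p = 0.333). ATMG00270 had 38 and 41 counts in protoplasts, against 5 and 7 in leaf, and rose by 3.45 ± 0.38 on the log2 scale (edgeR adjusted p = 3.36e-06). For both loci every protoplast count was above every leaf count before any scaling.

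In the other direction, ATMG09450 and ATMG09730 had the same count in every library, 94 and 66 in protoplasts, against 690 and 608 in leaf. Each fell by 2.26 ± 0.14 on the log2 scale (edgeR adjusted p = 7.38e-09) and was lower under all 6 scalings. ATMG00780 had 2 and 9 counts in protoplasts, against 91 and 74 in leaf, and fell by 3.12 ± 0.44 on the log2 scale (edgeR adjusted p = 3.21e-05). Its size rested on the protoplast library taken, at -2.28 without the first (adjusted p = 0.000404) and -4.69 without the second (adjusted p = 1.37e-05). ATMG00460 also fell, with 0 and 1 counts in protoplasts, against 14 and 12 in leaf, which puts leaf CPM at 15.4 times that of protoplasts with an exact 95% counting interval of 2.52 to 629.1. Equal counts occurred in 10 sets of loci with 21 members in all, so the 11 loci that fell are 10 distinct rows of counts. The pair with the highest counts, ATMG00020 and ATMG01390, had CPM of 84.4 ± 10.7 and 102.5 ± 16.1 in protoplasts, against 86.8 ± 5.44 and 94.0 ± 7.32 in leaf. Neither passed the test (log2 fold change -0.04 and 0.12, edgeR adjusted p = 0.610 and 0.213). By library size alone both were lower, at -0.85 and -0.68 (adjusted p = 4.83e-09 and 3.00e-07). Their calls with TMM factors also turned on single libraries. Without the second protoplast library ATMG00020 passed as lower (-0.18, adjusted p = 0.0332), and ATMG01390 passed as higher without the first protoplast library (0.26, adjusted p = 0.00479) or the second leaf library (0.20, adjusted p = 0.0176).

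Counts were also found at the chromosome 2 copy. Of 72 loci from AT2G07665 to AT2G07835 in the table, 70 lay in matches to the mitochondrial genome, and these held 3760 and 3400 counts in protoplasts, against 4354 and 3922 in leaf. In 38 pairs of a mitochondrial locus and a copy named by the notes, several had near-equal counts. The copy of atp6-1, AT2G07741, had the same count as atp6-1 in all 4 libraries, 56 and 47 in protoplasts, against 40 and 29 in leaf. The copy of atp9, AT2G07671, had 201 and 196 counts in protoplasts, against 378 and 323 in leaf, and that of rps12, AT2G07675, had 413 and 466 in protoplasts, against 581 and 494 in leaf. Other pairs differed: AT2G07751, the copy of nad3, had 276 counts over the 4 libraries, against 19 for nad3, and rose by 2.87 ± 0.28 on the log2 scale (edgeR adjusted p = 9.39e-07).

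The largest copy was that of atp1, AT2G07698, with 1721 and 1442 counts in protoplasts, against 643 and 671 in leaf. It rose by 2.03 ± 0.06 on the log2 scale (edgeR adjusted p = 1.02e-11), close to the 1.94 of atp1. In 22 pairs both loci were tested, and their log2 fold changes lay within 0.25 of each other in 15 of these. They were further apart in 7 pairs: cob (1.79 for cob and 0.84 for its copy), nad2B (1.40 and 0.18), ccmC (2.82 and 1.41 for AT2G07681), ATMG01280 (0.94 and 0.00344), ATMG00500 (0.43 and -0.18), ATMG00560 (-0.62 and -0.94) and ccmFC (-0.75 and -1.03). The loci of a pair need not cover the same span. The ccmC coding sequence of 771 bases had its identical match at chr2:3239693-3240463. That is the span of AT2G07771, which had 4 and 10 counts in protoplasts, against 5 and 2 in leaf, and was not tested. AT2G07681 spans chr2:3287529-3292366. The sources used here do not give how reads that fit both genomes were assigned, so counts of such pairs are uncertain and transcripts of the mitochondrial and the nuclear copy cannot be told apart. Close fold changes in a pair can thus not be read as agreement between separate transcripts. Whether the same reads were counted at both loci was not tested.

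**Figure D4:**
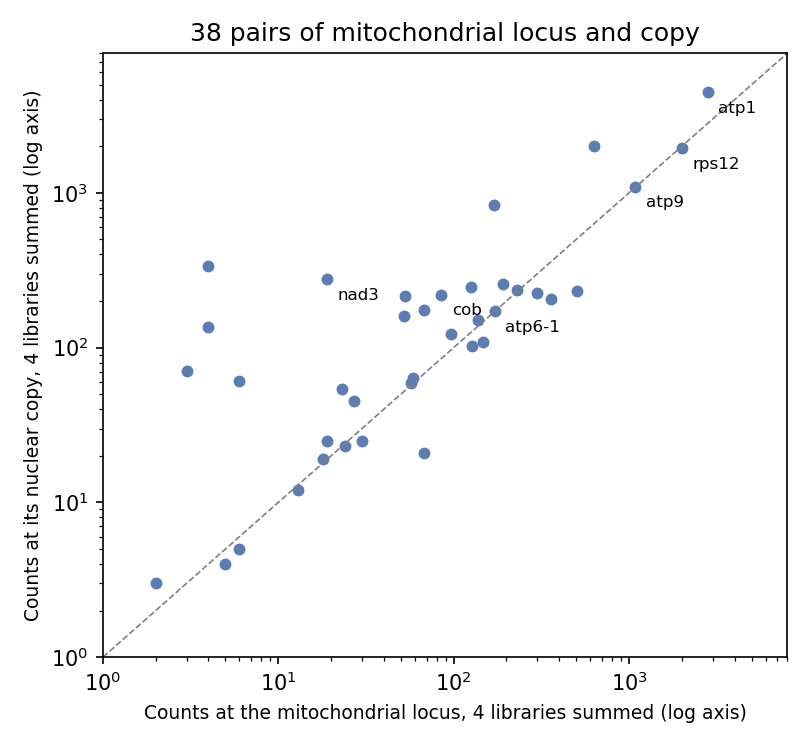
Counts summed over 4 libraries at a mitochondrial locus (x axis, log scale) and at its nuclear copy on chromosome 2 (y axis, log scale) for 38 pairs, with a dashed line at equality. The pairs of atp6-1, atp9 and rps12 lie on or beside the line, while nad3 (19 against 276) lies far above it.

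Nuclear genes whose proteins work in mitochondria were set beside them, from 3 lists. Of 36 respiratory subunits, 12 rose and 13 fell, against 39.8% and 40.7% of all tested genes, with a median log2 fold change of 0.00. SDH2-1, the iron-sulfur subunit of complex II, had 148.4 ± 9.76 CPM in protoplasts and 22.2 ± 1.79 CPM in leaf (SD, n = 2 each), a log2 fold change of 2.74 (edgeR adjusted p = 1.25e-12). CYTC-2, a cytochrome c, rose by 1.66 on the log2 scale (edgeR adjusted p = 3.17e-11). The ends of the list in the other direction were AT3G15640, annotated with a domain of cytochrome c oxidase subunit Vb, and GAMMA CAL2, a carbonic anhydrase-like subunit of complex I. They fell by 0.82 and 0.53 on the log2 scale (edgeR adjusted p = 1.93e-07 and 4.76e-06). By library size alone, 2 of the 36 rose and 34 fell, against 21.4% and 69.6% of all tested genes.

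Of 22 nuclear genes of mitochondrial gene expression, 5 rose and 12 fell, against 39.8% and 40.7% of all tested genes, with a median log2 fold change of -0.44. Scaled by library size alone, 2 rose and 18 fell, against 21.4% and 69.6% of all tested genes. AT1G74350, an intron maturase, and AT5G14580, a polyribonucleotide nucleotidyltransferase located in the mitochondrion, rose by 2.90 and 1.56 on the log2 scale (edgeR adjusted p = 2.47e-08 and 5.94e-05). RUG3, required for complex I, had 12 and 16 counts in protoplasts, against 123 and 134 in leaf, and fell by 2.43 on the log2 scale (edgeR adjusted p = 2.91e-06). MORF4, a multiple organellar RNA editing factor, fell by 2.15 (edgeR adjusted p = 6.19e-06). MGP3, a phage-type RNA polymerase that transcribes mitochondrial genes, had 6.47 ± 0.487 CPM in protoplasts and 9.59 ± 0.674 CPM in leaf (SD, n = 2 each) and fell by 0.57 on the log2 scale (edgeR adjusted p = 0.000285).

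Of 7 genes of mitochondrial DNA maintenance, 4 rose and 2 fell, against 39.8% and 40.7% of all tested genes. By library size alone, 0 rose and 6 fell, against 21.4% and 69.6% of all tested genes. AT1G30680, a homologue of the TWINKLE helicase, and POLGAMMA2, an organellar DNA polymerase, rose by 0.84 and 0.50 on the log2 scale (edgeR adjusted p = 7.56e-07 and 5.98e-06), but by library size alone they were at 0.03 and -0.30. OSB1, a single-strand DNA-binding protein, and ATWHY2, of the Whirly family, fell by 1.20 and 0.51 on the log2 scale (edgeR adjusted p = 0.000176 and 0.00141). Over the 3 lists, 21 of 65 genes rose and 27 fell, against 39.8% and 40.7% of all tested genes. With library size as the scale 4 of the 65 rose and 58 fell, against 21.4% and 69.6% of all tested genes.

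**Figure D5:**
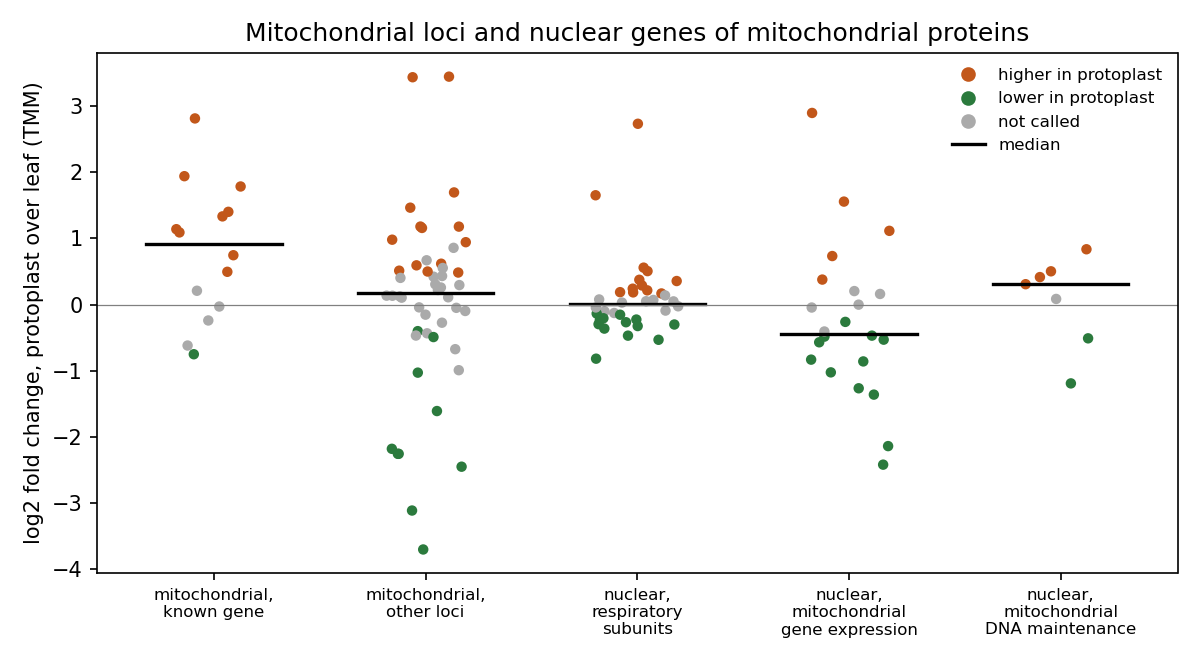
Log2 fold change of protoplast over leaf with TMM factors (y axis) for tested mitochondrial loci named as known genes by the notes on nuclear copies (14), the other tested mitochondrial loci, which can include known genes (48), and 3 lists of nuclear genes for mitochondrial proteins (36, 22 and 7). Orange points are higher, green points lower and grey points not called. Bars are medians, at 0.92, 0.18, 0.00, -0.44 and 0.31.

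The cell makeup of the libraries differed along with these values. The 4 mesophyll markers (CA1, RBCS1A, LHCA1 and CAB1) were present in all 4 libraries, with summed CPM of 44390 and 45370 in protoplasts, against 30590 and 30640 in leaf. The 4 epidermis markers summed to 1.70 and 1.40 CPM in protoplasts, against 630.2 and 641.6 CPM in leaf. The 4 guard cell markers summed to 2.05 and 2.24 CPM in protoplasts, with ALMT12 at 0, against 25.1 and 25.5 CPM in leaf. The 5 markers of companion cells and phloem summed to 23.9 and 22.4 CPM in protoplasts, against 659.4 and 690.4 CPM in leaf, and the 3 xylem markers to 0.972 and 1.07 CPM in protoplasts, against 12.6 and 14.2 CPM in leaf. Of 2 trichome markers, MYB0 rose, with 32 and 30 counts in protoplasts, against 0 and 0 in leaf. GL2 fell, with 1 and 0 counts in protoplasts, against 52 and 57 in leaf. The part of these differences in the mitochondrial values was not tested.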

How the data were processed

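The deposited table holds whole-number counts per gene locus for 4 libraries, made by the authors without normalization. STAR and DESeq are named in the submitters' processing notes, and the sources used here do not give the build, annotation, strand setting or treatment of reads with several matches. Loci with a sum under 2 are not in the deposited counts. Total counts were 48503141 and 39958035 for protoplasts and 42121436 and 43685947 for leaf. The authors' own comparison table was not used.

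Counts were tested with edgeR 4.0.16 in R 4.3.3 (TMM factors, filterByExpr with a minimum count of 10, quasi-likelihood test, group as the sole term), with Benjamini-Hochberg adjustment over 20200 genes. CPM values use TMM-scaled library sizes, and fold changes are protoplast over leaf. Alternatives used DESeq2 1.42.0, limma 3.58.1 and other scalings and filters. Nuclear copies were found with BLAST 2.17.0 in TAIR10.1, whose coordinates may not be those used for the counts. As the labels name no plants or days, p-values measure the spread between the libraries alone, and it may be technical. Intervals cover counting error only, as reads without molecular identifiers may be PCR copies.

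The loci, lists and tests were chosen with earlier results of these data known. Named are the loci that the reference names, the called loci without a name at each end of the log2 fold changes and those with the highest mean CPM, 2 called genes at each end of each nuclear list, and copies with the highest counts. Of the loci without a name some that this rule gives are not printed. MGP3, ATMG09730, ATMG00500 and the copies of nad3, cob, nad2B, ccmC, ccmFC, atp6-1 and 3 loci without a symbol were added after their values were seen.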

Additional observations from a re-analysis of the deposited data

How the results depend on the processing

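Same-numbered libraries did not deviate together (r = -0.08 over all 20200 tested genes, which are not independent replicates, and -0.01 over the 62 loci), so the numbers were not taken as pairs. A fit with the replicate block gave 21 loci higher and 10 lower, with a median of 0.26 for the loci. Over all 20200 tested genes it gave 7782 higher and 7868 lower, 15650 genes called in all.

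Loci called higher numbered 23 as reported, 13 with upper-quartile factors and 8 by library size alone. Loci called lower numbered 11 as reported, 17 with upper-quartile factors, 32 by library size alone and 17 with scaling to the mitochondrial loci. They numbered 6 with the stricter filter (10 counts or more in each library), which tests fewer loci, and 7 with DESeq2. The calls over all 20200 tested genes moved too, from 8036 higher and 8231 lower as reported. They were 6183 and 11047 with upper-quartile factors, 4326 and 14057 by library size alone, and 6079 and 10399 with scaling to the mitochondrial loci. With DESeq2 they were 7627 and 6795, and with the stricter filter 6469 and 6817 of 16843 genes. The median log2 fold change of 0.28 became -0.0495 with upper-quartile factors, -0.52 by library size alone, -0.0112 with scaling to the mitochondrial loci, -0.0864 without a filter and 0.41 with the stricter filter. Leaving out each library in turn gave 19 to 25 loci higher, 7 to 13 lower (7 without the first protoplast library), a median of 0.0851 (without the second protoplast library) to 0.32, 15323 to 15775 genes called, 42 to 46 of the nuclear list members called (48 as reported) and a share ratio of 0.613 to 0.698. The share ratio of 0.655 was 0.755 without ATMG00020, ATMG01390 and ATMG01380, 0.666 over nuclear counts and 0.677 with loci of equal counts taken once, an alternative chosen after seeing the data (exact permutation p = 0.333 each).

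Among the 6 scalings, 23 of the 62 tested loci changed sign, 7 of them called with TMM factors (atp8, rps12 and 5 loci without a note, each positive with TMM factors and negative by library size alone). Among the named results, signs turned as follows. By library size alone, rpl5 was at -0.59, atp8 -0.0569, rps12 -0.31, ATMG01090 -0.67, ATMG01390 -0.68 and POLGAMMA2 -0.30. With upper-quartile factors, rpl5 was at -0.12, ATMG01090 -0.19 and ATMG01390 -0.21, and with scaling to the mitochondrial loci -0.0797, -0.16 and -0.18. The value of atp9 was 0.00555 with RLE factors, 0.00927 with DESeq2 and, leaving out each library in turn, -0.19 to 0.12. Leaving out each library in turn put ATMG01090 at -0.0658 to 0.34, ATMG00020 at -0.18 to 0.0677, and ATMG01390 at -0.0477 (without the second protoplast library) to 0.26. The cause was not tested. Depth limits what can be tested, as 62 of the 123 loci had at most 30 counts.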
